A study of Mus musculus with 78 samples.

Results

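Genes of xenobiotic metabolism were followed in the cecum and colon of C57BL/6 mice, an inbred laboratory strain. Their symbols begin with the names of the cytochrome P450 families 1 to 4, the UDP-glucuronosyltransferase families 1 and 2, the cytosolic glutathione S-transferases, the sulfotransferases, the carboxylesterases 1 and 2, the NAD(P)H quinone dehydrogenases or 4 drug efflux transporter names. Of the 20673 genes in the table, 156 matched by name. The 82 with a mean of at least 0.5 FPKM over the 36 cecum and colon libraries were kept, and 74 fell below that level. FPKM counts sequenced fragments per length of transcript and per size of library, so levels can be compared between genes. The genes were thus selected on their mean FPKM in the gut, and levels are described below without a test.

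These genes act in 3 steps. Phase I enzymes oxidise, reduce or hydrolyse foreign chemicals and many endogenous lipids; phase II enzymes attach glucuronic acid, sulfate or glutathione; efflux transporters pump the products out of the cell. The liver carries most of this capacity, and the gut epithelium forms a first barrier that also meets the products of the microbiota. Nuclear receptors such as PXR (Nr1i2), CAR (Nr1i3) and the aryl hydrocarbon receptor (Ahr) induce many of the genes, and in the liver the clock output factors Dbp, Tef and Hlf are known regulators of several.

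All mice had the C57BL/6 genotype and no other allele is named. Control mice (CON) had 12 h of light and 12 h of dark. Circadian rhythm disruption (CRD) ran in 3 stages: for 4 weeks the phases were inverted at intervals of 3 days, for 3 weeks a light period of 48 h followed a dark period of 48 h, and for 1 week the light stayed on. Ages are labelled 8 weeks or 18 months, without saying whether that was at the start or at collection; neither hour of collection nor sex is stated in the labels. At 18 months the cecum had 4 libraries of each schedule, and the colon had 5 of CON and 4 of CRD. At 8 weeks the cecum had 5 of each, and the colon had 4 of CON and 5 of CRD. All tissues together came to 78 libraries of 5 tissues. Values are listed in the order of the replicate numbers, which are 1, 3, 4 and 5 in both 18-month CRD groups and 2 to 5 in the 8-week colon CON group. Nothing in the labels says that libraries of a group came from separate animals, so p-values measure only the spread between these samples.

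All 8 epithelial markers in a list with Epcam, Vil1 and keratins were at a mean of at least 0.5 FPKM in both tissues, with summed levels of 6709 to 10177 FPKM in the cecum and 6842 to 12330 in the colon. Colon libraries varied in Hoxb13, a homeobox gene of the distal hindgut, from 0.04 to 177.96 FPKM, whereas no cecum library exceeded 0.09. The summed level of 4 Y-linked transcripts was at most 2.13 FPKM at 18 months and at least 39.9 at 8 weeks, with 1 exception: replicate 5 of the 18-month colon CON group reached 70.4. Age label and sex therefore cannot be told apart here. Replicate 5 of the 18-month colon CRD group had a smooth muscle sum of 15520 FPKM, against 2317 to 7065 in the other colon libraries. Read counts were not part of the table, so the depth of a library was unknown. Relative depth read from the low values ran from 0.948 to 1.054. Only values within 1.5 times a gene's lowest value above 0 were used, which holds this ratio near 1. Whether the libraries were of like depth therefore cannot be read from it.

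The 82 genes comprised 44 of phase I (of 95 matched by name), 34 of phase II (of 54) and 4 of transport (of 7). Together they made up 0.971% to 1.97% of summed FPKM in the cecum libraries (median 1.39%) and 0.509% to 1.56% in the colon libraries (median 0.884%). Just inside the level stood Sult6b1 at 0.566 FPKM, Cyp2j13 at 0.541 and Sult5a1 at 0.521. Just outside stood the multidrug exporter Abcb1b at 0.492, Cyp3a11 at 0.487 and Abcc2 at 0.468. Neither Cyp3a11, the major drug-oxidising P450 of mouse liver, nor any of the 3 Cyp1 genes reached the level.

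**Figure D1:**
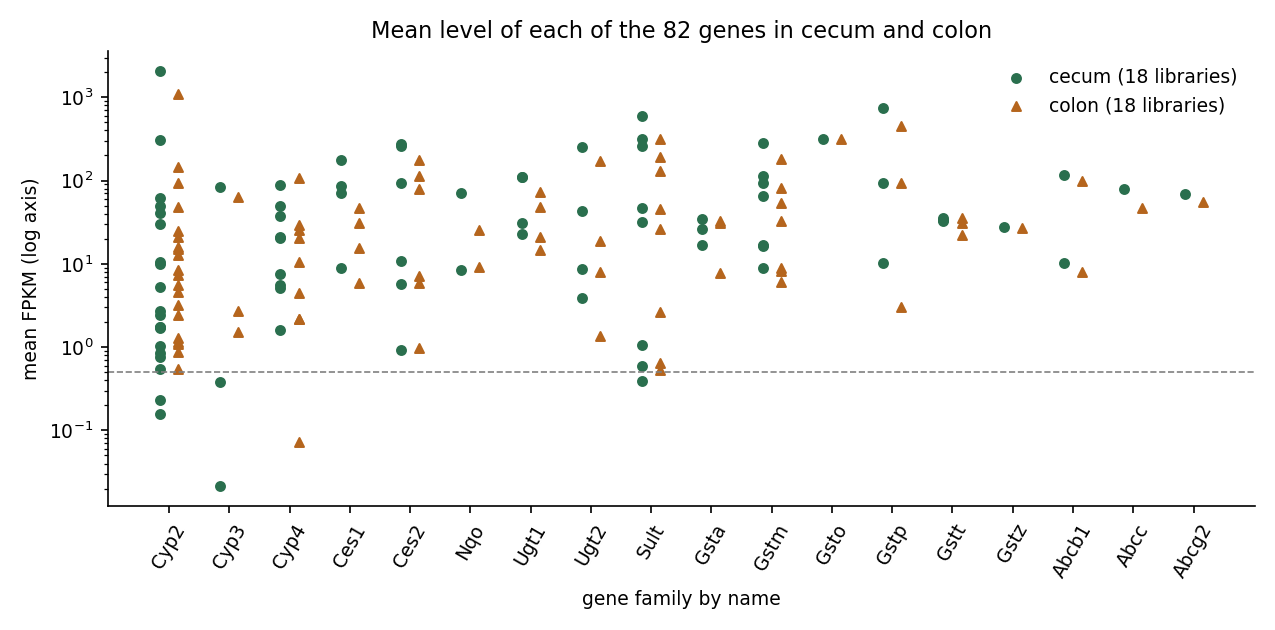
Mean FPKM (log axis) of each of the 82 genes in 18 cecum libraries (circles) and 18 colon libraries (triangles), arranged by gene family; the dashed line marks 0.5 FPKM. Cyp2 spans the widest range, from Cyp2c55 at the top (2041 FPKM in the cecum) to genes below the line in 1 of the tissues.

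Cyp2c55 was by far the most abundant phase I gene. It encodes a P450 that oxidises arachidonic acid and is induced in liver through PXR and CAR, and its mean was 2041 ± 536 FPKM (SD, n = 18) in the cecum and 1108 ± 597 (n = 18) in the colon. It alone made up 20.2% to 30.2% of the genes' summed FPKM in a cecum library and 8.54% to 33.2% in a colon library. Its neighbour Cyp2c65 followed at 225 FPKM over both tissues. In the other P450 families Cyp4f14 (98.0 FPKM) and Cyp4f40 (35.1), of the leukotriene and fatty acid omega-hydroxylase group, and Cyp3a13 (73.3) led, and Cyp3a44 (1.37) was second in its family. Among esterases, which hydrolyse ester and amide drugs and lipid esters, Ces2c (224 FPKM), Ces2e (188) and Ces1g (95.5) stood first and Ces1f had 67.1. The quinone reductase Nqo1 had 48.4 FPKM and its relative Nqo2 8.84.

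Phase II was led by Gstp1, a glutathione transferase, at 598 FPKM, and by the phenol sulfotransferase Sult1a1 at 457 FPKM. Gsto1, which also reduces dehydroascorbate, had 314 FPKM. Other leading transferases were Gstm1 (233), Sult1b1 (226), Gstm2 (97.0), Gstp2 (94.2), Gstt1 (34.8), Gstt3 (33.5), Gsta4 (33.2), Gsta1 (28.5) and Gstz1 (27.4). Glucuronidation genes were headed by Ugt2b34 (211 FPKM), Ugt1a7c (92.2), Ugt1a6b (78.6) and Ugt2b5 (30.8). The efflux transporters Abcb1a (109), Abcc3 (63.3) and Abcg2 (62.2), which are P-glycoprotein, a basolateral conjugate exporter and breast cancer resistance protein, were all well above the level. Abcb10 (9.12 FPKM) is a mitochondrial transporter that matched by its letters only. How reads were divided among near-identical sequences is not given in the sources used here, so single values within Ugt1a, whose members share exons, and within the Gstm, Gstp, Ces, Cyp2c, Cyp2d and Cyp3a groups are uncertain.

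Other tissues were lower for most of these genes, which were chosen for their gut level. The mean was highest in the cecum for 48 genes and in the colon for 18. Levels of at least 10 FPKM were reached by 53 genes in the cecum and 49 in the colon, against 14 in the hippocampus, 16 in the hypothalamus and 9 in peripheral blood mononuclear cells (PBMC). The exceptions included Sult4a1, the brain sulfotransferase, with 158 ± 13.5 FPKM in the hypothalamus (n = 19) against 2.65 ± 1.12 in the colon (n = 18). Gstm5 had 343 ± 125 FPKM in the hippocampus (n = 19) and 64.6 ± 11.5 in the cecum. Cyp4f18, a leukocyte P450 that inactivates leukotriene B4, had 157 ± 51.1 FPKM in PBMC (n = 4) and 7.63 ± 3.63 in the cecum.

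Members of these families lie side by side in the genome. At a gap of at most 500000 bases, 52 of the 82 genes formed 11 clusters of at least 3 (GRCm38.p6). The largest were 7 Cyp2d genes on chromosome 15 from 82370527 to 82794452, and 7 Gstm genes on chromosome 3 from 107895854 to 108045179. Ugt2b34, Ugt2b35, Ugt2b36, Ugt2b5, Sult1b1 and Sult1d1 shared a stretch of chromosome 5 from 86889770 to 87569006. Chromosome 19 held Cyp2c55, Cyp2c65 and Cyp2c66 between 39006940 and 39186756.

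Promoters of 70 of the 82 genes were found in RefSeq (GRCm38.p6), each read from 250 bases before to 50 after the start of the gene and searched on both strands. The E-box CACGTG, bound by the clock proteins, was present in 2 of them (2.86%; Cyp2j6 and Cyp4v3) and in 7.24% of all 27025 promoters. A D-box, TTATGTAA or TTACGTAA, the element of Dbp, Tef and Hlf, was present in 2 (2.86%), against 1.06% of all promoters. The core GCGTG of the xenobiotic response element was present in 16 (22.9%), against 32.5%. The antioxidant response element TGACNNNGC was present in 7 (10.0%), against 12.5%. No motif contains another, though matches can overlap, and a match describes letters and not a bound site. Both D-box promoters belong to carboxylesterases of the Ces1 cluster, and they are shown because these letters are rare and because Ces1g had the largest tissue difference described below. Each is given as the 250 bases before the start, on the minus strand, at chr8:93337210-93337459 for Ces1g and chr8:93229620-93229869 for Ces1e, with the D-box in capitals:
Ces1g: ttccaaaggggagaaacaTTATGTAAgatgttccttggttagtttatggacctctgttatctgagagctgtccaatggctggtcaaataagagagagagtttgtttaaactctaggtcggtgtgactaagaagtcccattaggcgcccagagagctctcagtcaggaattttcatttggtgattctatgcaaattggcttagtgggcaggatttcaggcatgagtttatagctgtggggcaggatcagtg
Ces1e: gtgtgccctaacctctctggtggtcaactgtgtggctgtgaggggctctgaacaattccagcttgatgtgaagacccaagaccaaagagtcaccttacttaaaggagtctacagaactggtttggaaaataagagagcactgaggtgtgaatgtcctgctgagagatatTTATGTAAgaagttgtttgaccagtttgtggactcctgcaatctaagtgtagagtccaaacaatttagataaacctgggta
The D-box began 232 bases before the start in Ces1g and 81 bases before it in Ces1e, and the aligned sequences were identical at 46.7% of columns.

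The first comparison set the colon against the cecum in CON mice. More genes were lower in the colon than higher. At 18 months 24 of 82 were lower, against 9.41% of all 14038 genes tested, and 7 were higher, against 10.7% (limma on log2(FPKM + 1), Benjamini-Hochberg adjusted p under 0.05 over all genes). At 8 weeks 36 were lower, against 12.7% of all genes, and 4 were higher, against 12.4%. The median difference over the 82 was -0.37 on the log2 scale at 18 months and -0.48 at 8 weeks, beside -0.03 for all genes at both ages. Those called at both ages numbered 28, of which 24 were lower in the colon and 4 higher, which is 90.3% of the calls at 18 months and 70.0% of those at 8 weeks. The 28 include Cyp4f15, which reached 0.5 FPKM in the cecum alone, and Cyp2c69, which reached it in the colon alone. In bulk tissue, fewer cells of a type and less RNA per cell cannot be told apart. Summed surface colonocyte markers (10 genes) were 21816 to 37081 FPKM in the cecum and 6930 to 21874 in the colon. Car1 alone had a mean of 12279 FPKM over the gut libraries and the next, Guca2a, 3496, so this sum follows Car1 most. Summed goblet cell markers (7 genes) were 6309 to 15671 FPKM in the cecum and 10629 to 40970 in the colon, and the part of either in the differences was not tested.

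**Figure D2:**
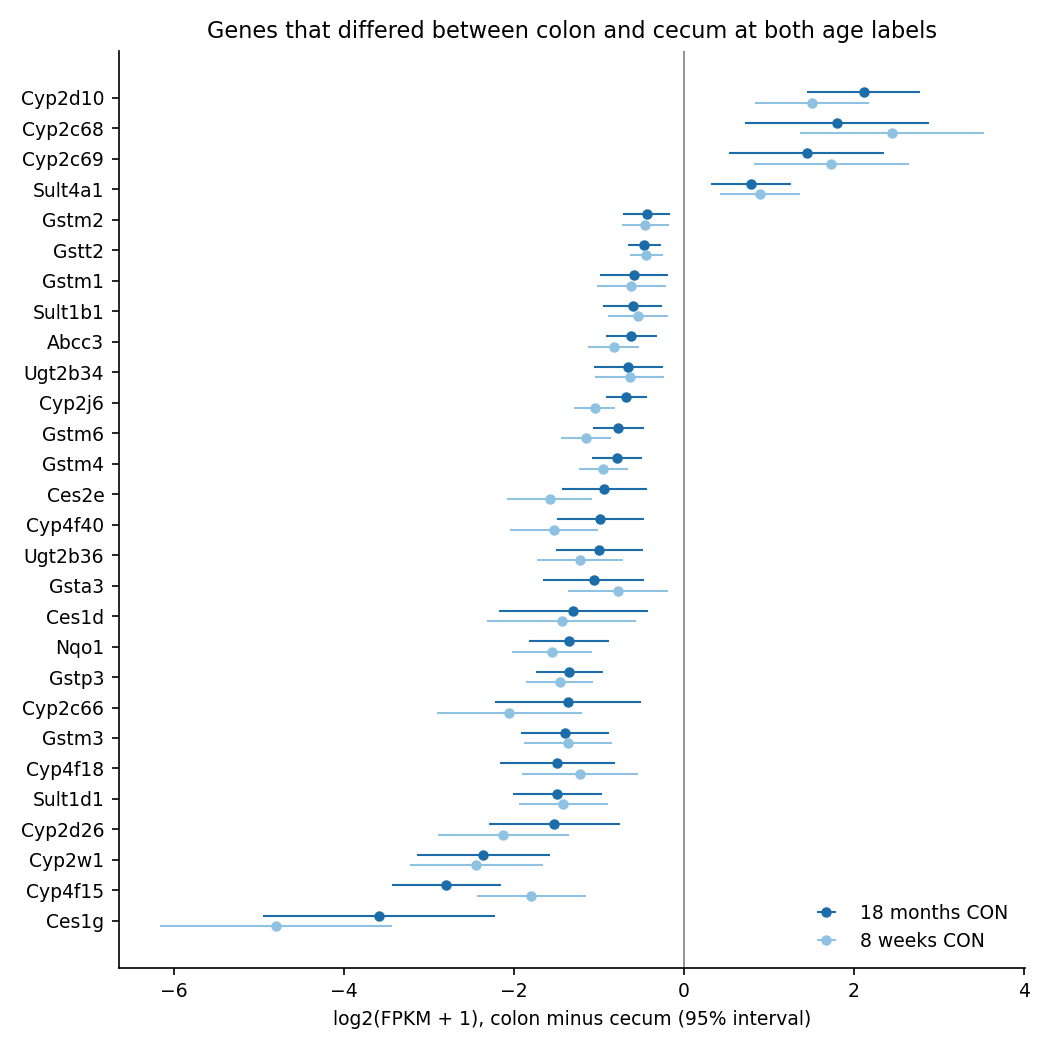
Difference in log2(FPKM + 1), colon minus cecum, with 95% intervals, for the 28 genes called at both ages in CON mice (dark points 18 months, light points 8 weeks). The 4 genes to the right of 0 were higher in the colon at both ages; Ces1g had the lowest value at both.

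Phase I showed the widest differences. Ces1g, an esterase of the liver and gut that hydrolyses lipid esters, had 269, 210, 176 and 231 FPKM in the 18-month cecum CON libraries and 6.02, 21.8, 25.9, 79.7 and 4.84 in the colon. The groups did not overlap, and replicate 4 of the colon stood above the other 4. Its log2 difference was -3.59 ± 0.67 (SE, limma adjusted p = 0.000223) at 18 months and -4.80 ± 0.67 (adjusted p = 3.19e-06) at 8 weeks. Nqo1, a reductase that detoxifies quinones, had 103, 71.6, 72.7 and 99.0 FPKM in the cecum and 24.1, 30.7, 34.0, 54.0 and 28.6 in the colon at 18 months. Here too every colon library was below every cecum library. The Nqo1 difference was -1.35 ± 0.23 at 18 months (limma adjusted p = 7.87e-05), or 2.54-fold on this scale, and -1.55 ± 0.23 at 8 weeks (adjusted p = 8.73e-06). Cyp4f15 had 11.4, 6.64, 3.13 and 7.37 FPKM in the cecum and no more than 0.19 in any 18-month colon CON library. It was the only member of the 82 to reach the level of 0.5 in the cecum alone, so its difference is not independent of its selection. Other P450 genes lower in the colon at both ages were Cyp2w1, Cyp2d26, Cyp2j6, Cyp2c66, Cyp4f18 and Cyp4f40. The esterases Ces1d and Ces2e were lower at both ages as well. For Cyp2w1 the log2 difference was -2.36 ± 0.39 at 18 months and -2.44 ± 0.39 at 8 weeks. Cyp2c66 lost its call at 18 months when libraries of the 2 tissues with the same number were treated as pairs, with -1.13 and a limma adjusted p of 0.0501.

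Several Cyp2c and Cyp2d genes were higher in the colon. Cyp2c68 had 2.91, 2.47, 2.57 and 2.50 FPKM in the 18-month cecum CON libraries and 30.4, 6.51, 6.32, 6.71 and 22.7 in the colon. All colon libraries were higher, with replicates 1 and 5 well above the rest. Its log2 difference was 1.80 ± 0.53 at 18 months (limma adjusted p = 0.0155) and 2.45 ± 0.53 at 8 weeks (adjusted p = 0.00103). Cyp2c69 had 0.295 ± 0.238 FPKM in the cecum (n = 4) and 3.39 ± 3.30 in the colon (n = 5) at 18 months. It reached the level in the colon alone, so its difference is not independent of its selection. Cyp2d10 was higher in the colon by 2.12 ± 0.33 at 18 months and 1.51 ± 0.33 at 8 weeks, and the low-level Sult4a1 by 0.79 ± 0.23 and 0.90 ± 0.23. At 18 months Cyp2d9, Cyp2j9 and Cyp2s1 were called higher too.

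Because Cyp2c genes of chromosome 19 differed in opposite directions between the tissues, the 250 bases before the start of 4 of them are shown. Cyp2c65 and Cyp2c66 belong to the cluster with Cyp2c55, while Cyp2c68 and Cyp2c69 lie outside it. Cyp2c65 (chr19:39060756-39061005, plus strand) and Cyp2c66 (chr19:39113648-39113897, plus strand) were called lower in the colon at 8 weeks, and Cyp2c68 (chr19:39741102-39741351, minus strand) and Cyp2c69 (chr19:39886770-39887019, minus strand) were called higher. Capitals mark the only searched motif inside these stretches, a GCGTG core on the opposite strand that begins 130 bases before the start of Cyp2c68:
Cyp2c65: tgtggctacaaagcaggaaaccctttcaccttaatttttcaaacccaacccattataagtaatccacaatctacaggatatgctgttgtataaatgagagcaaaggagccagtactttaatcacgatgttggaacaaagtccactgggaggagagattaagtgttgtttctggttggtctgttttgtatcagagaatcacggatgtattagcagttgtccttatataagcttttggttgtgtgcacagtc
Cyp2c66: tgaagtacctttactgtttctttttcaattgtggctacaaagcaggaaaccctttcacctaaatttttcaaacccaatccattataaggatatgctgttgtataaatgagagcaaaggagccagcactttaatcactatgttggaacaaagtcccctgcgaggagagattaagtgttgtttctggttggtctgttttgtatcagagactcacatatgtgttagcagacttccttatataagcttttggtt
Cyp2c68: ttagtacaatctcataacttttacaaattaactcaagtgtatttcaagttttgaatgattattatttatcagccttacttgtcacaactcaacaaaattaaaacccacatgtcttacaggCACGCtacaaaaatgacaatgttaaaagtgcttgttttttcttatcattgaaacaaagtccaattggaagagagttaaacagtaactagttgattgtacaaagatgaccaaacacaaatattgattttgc
Cyp2c69: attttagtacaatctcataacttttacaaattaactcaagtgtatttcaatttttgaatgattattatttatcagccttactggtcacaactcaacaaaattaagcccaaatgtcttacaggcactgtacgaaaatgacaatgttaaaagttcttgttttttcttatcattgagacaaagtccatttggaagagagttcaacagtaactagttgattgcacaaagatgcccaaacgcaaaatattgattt
Aligned columns were identical at 74.6% between Cyp2c65 and Cyp2c66 and at 91.3% between Cyp2c68 and Cyp2c69, but at 46.8% between Cyp2c65 and Cyp2c68. The stretch of Cyp2c69 held none of the searched letters, which says nothing of any factor.

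Phase II genes lay mostly on the cecum side. Of 34, 12 were lower in the colon and 1 higher at 18 months, and 17 lower and 1 higher at 8 weeks. Of all genes tested, 9.41% were called lower and 10.7% higher at 18 months, and 12.7% and 12.4% at 8 weeks. All 7 Gstm genes had negative differences at both ages, and 5 and 6 of them were called at 18 months and 8 weeks. Gstm3 had 148, 85.6, 90.4 and 155 FPKM in the 18-month cecum CON libraries and 43.6, 39.7, 37.0, 62.8 and 37.9 in the colon. No colon value reached the lowest cecum value, and the log2 differences were -1.39 ± 0.25 at 18 months (limma adjusted p = 0.000173) and -1.36 ± 0.25 at 8 weeks (adjusted p = 0.000198). Sult1d1, which sulfates catecholamines and other small phenols, had 434, 435, 338 and 425 FPKM in the cecum and 133, 169, 112, 197 and 124 in the colon. Again the groups did not overlap, and the differences were -1.49 ± 0.26 and -1.42 ± 0.26. Gstp3, Gstm1, Gstm2, Gstm4, Gstm6, Gstt2, Gsta3, Sult1b1, Ugt2b34 and Ugt2b36 were also lower in the colon at both ages. Of the transporters, Abcc3 was lower at both ages, by -0.62 ± 0.15 and -0.82 ± 0.15.

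Genes that support these enzymes or related ones were compared from lists drawn up with earlier results known. Papss2, which makes the sulfate donor PAPS, was lower in the colon by -2.60 ± 0.21 at 18 months and -2.96 ± 0.21 at 8 weeks (limma adjusted p = 1.02e-10 and 5.76e-12). Of 6 electron donors to P450, 3 were lower at each age: Cyb5a, Cyb5b and Fdxr. Por was not among them, and the list was not limited to donors of the P450 families followed here. Gclc, the catalytic subunit of the enzyme that limits glutathione synthesis, was lower by -1.22 ± 0.19 and -1.71 ± 0.19, and 5 of 19 tested NRF2 targets were lower at 18 months and 7 at 8 weeks, with 1 higher at 8 weeks (Ephx1). Among 16 receptors and partners, Rxra and Pparg were lower and Esr1 higher at both ages, and Nr1i3 was lower at 18 months by -1.28 ± 0.31. In the list of transporters and conjugation partners (32 tested), 10 were lower and 3 higher at 18 months, and 15 lower and 2 higher at 8 weeks. Beside these lists, 9.41% of all genes were called lower and 10.7% higher at 18 months. At 8 weeks the shares of all genes were 12.7% lower and 12.4% higher. None of the 19 clock genes was called at either age, nor had any a limma p under 0.05 before adjustment.

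The next comparison set 18 months against 8 weeks within CON. In the cecum 6 of 77 tested genes were higher at 18 months, against 0.706% of all 13747 genes, and none was lower, against 0.8%. An unadjusted limma p under 0.05 was found for 31 (40.3%), against 17% of all genes. The median over the 77 was 0.29 on the log2 scale, beside 0.08 for all genes. As all 18-month cecum libraries had Y-linked sums of at most 2.13 FPKM and all 8-week ones at least 39.9, these may be differences of age or of sex, which cannot be told apart.

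**Figure D3:**
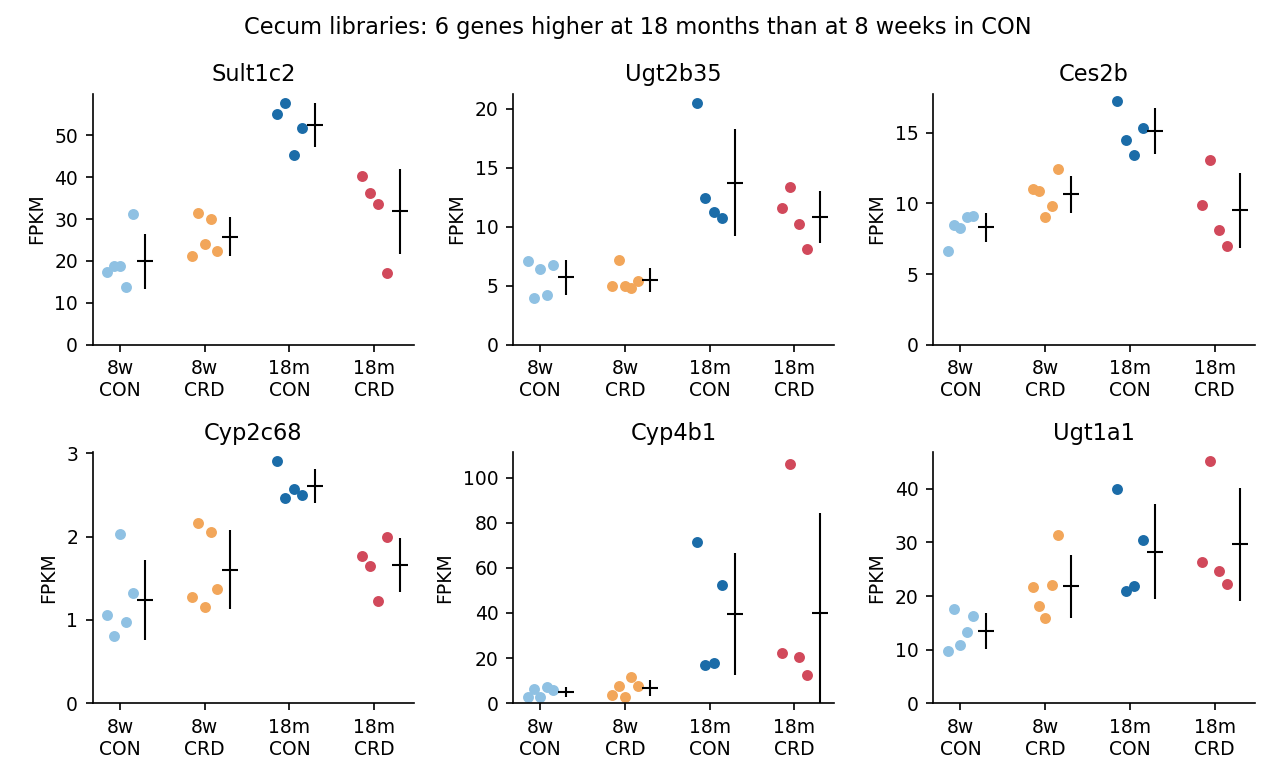
FPKM in each cecum library for the 6 genes called higher at 18 months in CON; points are libraries, black marks with bars the mean and SD (cut off at 0), and colours the age label and schedule. In each panel every 18-month CON library lies above every 8-week CON library.

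Sult1c2, a sulfotransferase, had 55.1, 57.6, 45.3 and 51.8 FPKM at 18 months and 17.2, 18.7, 18.7, 13.8 and 31.2 at 8 weeks. The ages did not overlap, and replicate 5 of the 8-week group stood highest within it. Its log2 change was 1.40 ± 0.22 (limma adjusted p = 0.00661), or 2.63-fold. Cyp4b1, a P450 that activates protoxins such as ipomeanol, had 71.3, 16.8, 17.8 and 52.2 FPKM at 18 months and 2.73, 6.42, 2.82, 7.04 and 6.00 at 8 weeks. Replicates 1 and 4 were far above replicates 2 and 3, yet all 4 exceeded the 8-week libraries. Its change was the largest of the 6, 2.57 ± 0.55 (limma adjusted p = 0.0285), or 5.92-fold. Ugt1a1, the bilirubin glucuronosyltransferase, had 39.9, 21.0, 21.8 and 30.4 FPKM against 9.67, 17.6, 10.8, 13.4 and 16.2. The groups were apart, with a change of 1.00 ± 0.24 (limma adjusted p = 0.0477). Ugt2b35 had 20.5, 12.4, 11.3 and 10.8 FPKM against 7.08, 3.95, 6.46, 4.25 and 6.79, a change of 1.12 ± 0.20 (adjusted p = 0.00984, limma). Ces2b had 17.2, 14.5, 13.4 and 15.4 against 6.62, 8.45, 8.29, 9.07 and 9.13, a change of 0.79 ± 0.14 (adjusted p = 0.0104, limma). Cyp2c68 had 2.91, 2.47, 2.57 and 2.50 against 1.06, 0.81, 2.03, 0.97 and 1.32, a change of 0.71 ± 0.15 (adjusted p = 0.0263, limma). None of these 3 overlapped between the ages. The count of 6 fell to 1 without replicate 1 of the 18-month CON group, and to 3 without replicate 4 of that group or without replicate 2 or 4 of the 8-week CON group. Outside the 82, Fmo1, a flavin monooxygenase, and Adh1, an alcohol dehydrogenase, were called higher at 18 months by 1.03 ± 0.24 and 0.85 ± 0.19, as was the clock gene Nr1d2 by 0.71 ± 0.16. No receptor, electron donor or NRF2 target was called, and 4, 1 and 4 of them had an unadjusted limma p under 0.05.

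In the colon 1 of 81 tested genes was higher at 18 months, against 0.22% of all 14072 genes, and none was lower, against 0.76%. An unadjusted limma p under 0.05 was found for 38 (46.9%), against 16.5% of all genes. The median was 0.46, beside 0.07 for all genes. Cyp4f13, a P450 of the omega-hydroxylase group, had 38.2, 33.7, 33.9, 42.2 and 27.8 FPKM at 18 months and 24.3, 21.8, 21.4 and 24.9 at 8 weeks. Every 18-month library was above every 8-week one, and the change was 0.58 ± 0.13 (limma adjusted p = 0.0436). Abcc3 (0.59 ± 0.14, limma adjusted p = 0.0506) and Sult1c2 (1.45 ± 0.36, adjusted p = 0.0663) came next and did not pass. The replicate with the high Y-linked sum belonged to the 18-month group, and without it 3 genes were called higher, against 0.455% of all genes. Fits without single libraries gave from 0 to 4 calls, with 4 without replicate 5 of the 18-month CRD, 8-week CON or 8-week CRD group. From the lists, Cbr1, a carbonyl reductase, was called higher by 0.53 ± 0.11.

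CRD was then set against CON within each tissue and age. No gene of the 82 was called in any of the 4 comparisons. In the cecum at 18 months 11 of 77 had an unadjusted limma p under 0.05, which is 14.3% against 16.3% of all genes, and calls at the adjusted threshold were 0.0291% of all genes. In the cecum at 8 weeks 9 of 77 (11.7%) had such a p, against 5.16% of all genes, of which 0.00727% were called. In the colon at 18 months it was 36 of 81 (44.4%), 27 lower and 9 higher, against 17.8% of all genes, of which 0.54% were called. In the colon at 8 weeks it was 6 of 81 (7.41%), all higher, against 6.92% of all genes, of which 0.0142% were called. Among the 9 higher in the 18-month colon, Cyp2f2 had 4.55 ± 5.00 FPKM in CRD (n = 4) and 0.40 ± 0.22 in CON (n = 5). Its cecum mean was 0.16 FPKM, and it reached the level of 0.5 through this CRD group. Its value is therefore not independent of its selection. Medians over the genes were -0.03, 0.09, -0.29 and 0.20 in these 4 comparisons, beside -0.10, 0.02, -0.04 and 0.06 for all genes. The median half-width of a gene's 95% interval was 0.40, 0.35, 0.59 and 0.59, so changes smaller than that were generally not detectable here. These intervals are not adjusted over all genes, so a call generally needed a larger change. In the 18-month colon, for example, Ugt2b5 at -2.53 was not called.

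**Figure D4:**
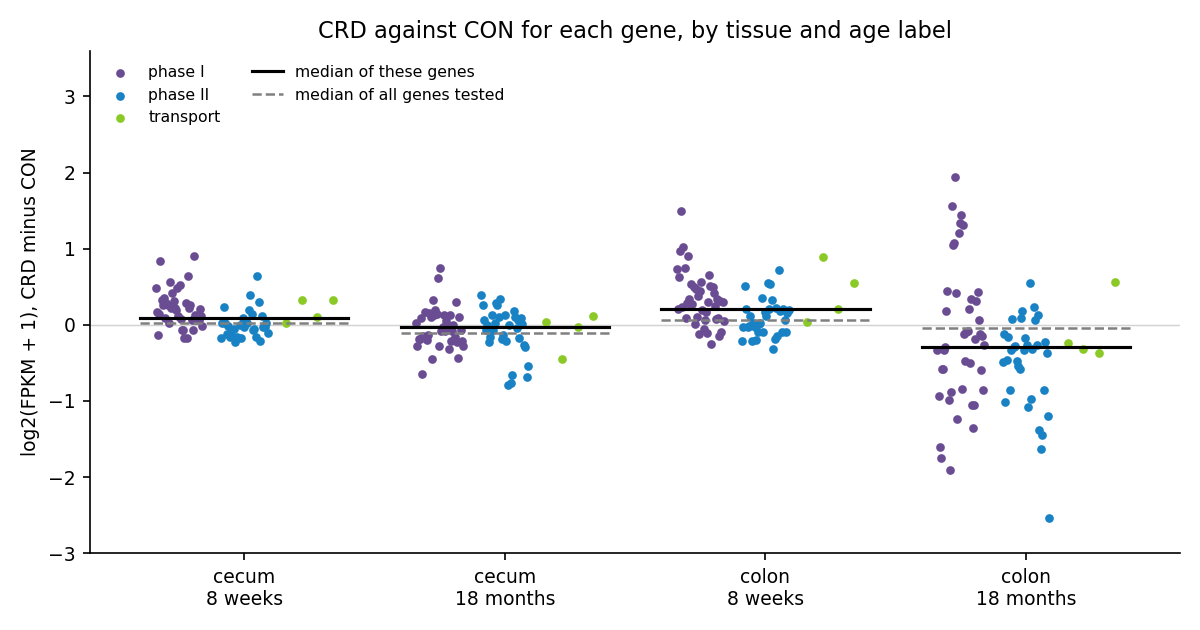
CRD minus CON in log2(FPKM + 1) for each gene by tissue and age label, split into phase I, phase II and transport; black lines are medians of the genes tested here (77 in the cecum, 81 in the colon) and dashed grey lines medians of all genes tested. The colon at 18 months has the widest spread, from -2.53 to 1.94.

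In the 18-month cecum, Ces2b, an esterase of the carboxylesterase 2 group, had 17.2, 14.5, 13.4 and 15.4 FPKM in CON and 9.90, 13.1, 8.15 and 6.95 in CRD. The groups did not overlap, but the change of -0.64 ± 0.15 did not pass (limma adjusted p = 0.125). For Sult1d1 the values were 434, 435, 338 and 425 in CON and 310, 280, 271 and 186 in CRD. All CRD libraries were below all CON libraries, and the change was -0.66 ± 0.18 (limma adjusted p = 0.162). For Ugt2b36 the value was -0.69 ± 0.18 (limma adjusted p = 0.162), with overlapping groups. Phase I had a median of -0.07 with 24 of 40 values negative, and phase II a median of 0.00 with 16 of 33 negative. Of all genes tested, 68.8% were negative in this comparison. One fit, without replicate 3 of the CRD group, called 1 of the 77 genes, against 0.0871% of all genes.

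At 8 weeks the cecum values with the smallest p were Ugt1a1 (0.65 ± 0.22, limma adjusted p = 0.825), Cyp2c66 (0.56 ± 0.20, adjusted p = 0.829) and Ces2a (0.84 ± 0.34, adjusted p = 0.877). Each overlapped between the schedules. Phase I values were positive for 33 of 40 genes with a median of 0.20, whereas phase II had 20 of 33 negative and a median of -0.03. Of all genes tested, 43.9% were negative. No test of the contrast between the phases was made.

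The 18-month colon carried the largest values. In its CON group replicate 5 had a Y-linked sum of 70.4 FPKM, against at most 1.46 in the other CON libraries and 1.94 in CRD. Schedule and sex are thus partly mixed in this comparison, and the part of sex was not tested. Ugt2b36, a glucuronosyltransferase at low level, had 1.69, 2.36, 2.52, 4.52 and 1.46 FPKM in CON and 0.89, 0.24, 0.44 and 0.38 in CRD. The groups did not overlap, and the change was -1.20 ± 0.29 (limma adjusted p = 0.0677). Gstm3 had 43.6, 39.7, 37.0, 62.8 and 37.9 FPKM in CON and 30.7, 24.3, 25.2 and 15.8 in CRD. Cyp2j6, a P450 that oxidises arachidonic acid, had 20.9, 25.6, 25.9, 25.1 and 20.2 in CON and 19.6, 14.3, 16.4 and 16.3 in CRD. Neither gene overlapped between the schedules, and neither passed, with -0.86 ± 0.22 (limma adjusted p = 0.0743) and -0.48 ± 0.12 (adjusted p = 0.0800). Phase II values were negative for 27 of 34 genes (median -0.33) and phase I values for 27 of 43 (median -0.19), beside 58.4% of all genes. All 4 Ces1, all 4 Ugt1 and all 3 tested genes of the Cyp2c55 cluster were negative, while 6 of the 7 Cyp2d genes were positive. With Hoxb13 as a covariate, described below, some of these genes changed sign, such as Ces1g and Ugt1a1, and others kept it.

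Cyp2d12 and Cyp2d10 were high in part of the CRD group. Cyp2d12 had 2.35, 60.2, 35.9 and 4.97 FPKM in the 18-month colon CRD libraries and 2.81, 3.55, 2.86, 1.83 and 3.24 in CON. Replicates 3 and 4 were high, and the groups overlapped. The same 2 libraries had the highest Hoxb13, 178 and 159 FPKM, and the highest Cyp2d10, with 44.8 and 54.8 FPKM against 10.3 and 16.4 in the other CRD libraries. Cyp2d22 was more even, with 14.6, 18.2, 20.9 and 14.6 FPKM in CRD against 18.3, 10.3, 8.97, 15.3 and 10.9 in CON. Cyp2d26 was the 1 Cyp2d gene with a negative value, with 9.73 ± 2.48 FPKM in CRD (n = 4) and 29.7 ± 20.6 in CON (n = 5).

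Hoxb13 differed between and within the colon groups, so it is given beside these results. In 18-month CON it was 30.8, 3.12, 0.25, 0.09 and 40.3 FPKM, and in 18-month CRD 36.4, 178, 159 and 27.3. At 8 weeks it was 1.82, 79.4, 38.4 and 46.1 in CON and 75.1, 15.2, 40.4, 35.5 and 0.04 in CRD. All groups overlapped, but the 3 lowest 18-month values were all CON and the 2 highest all CRD. Within groups, in a limma fit chosen after seeing the data, 26 of 81 genes fell with log2(Hoxb13 + 1), against 2.42% of all genes, and 5 rose, against 1.67%. The count of 31 was 15 without replicate 5 of the 8-week CRD group, against 1.61% of all genes. It was 10, with 6 falling and 4 rising, against 0.981% of all genes, without that library and replicate 4 of the 18-month CON group, the 2 farthest in Hoxb13.

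**Figure D5:**
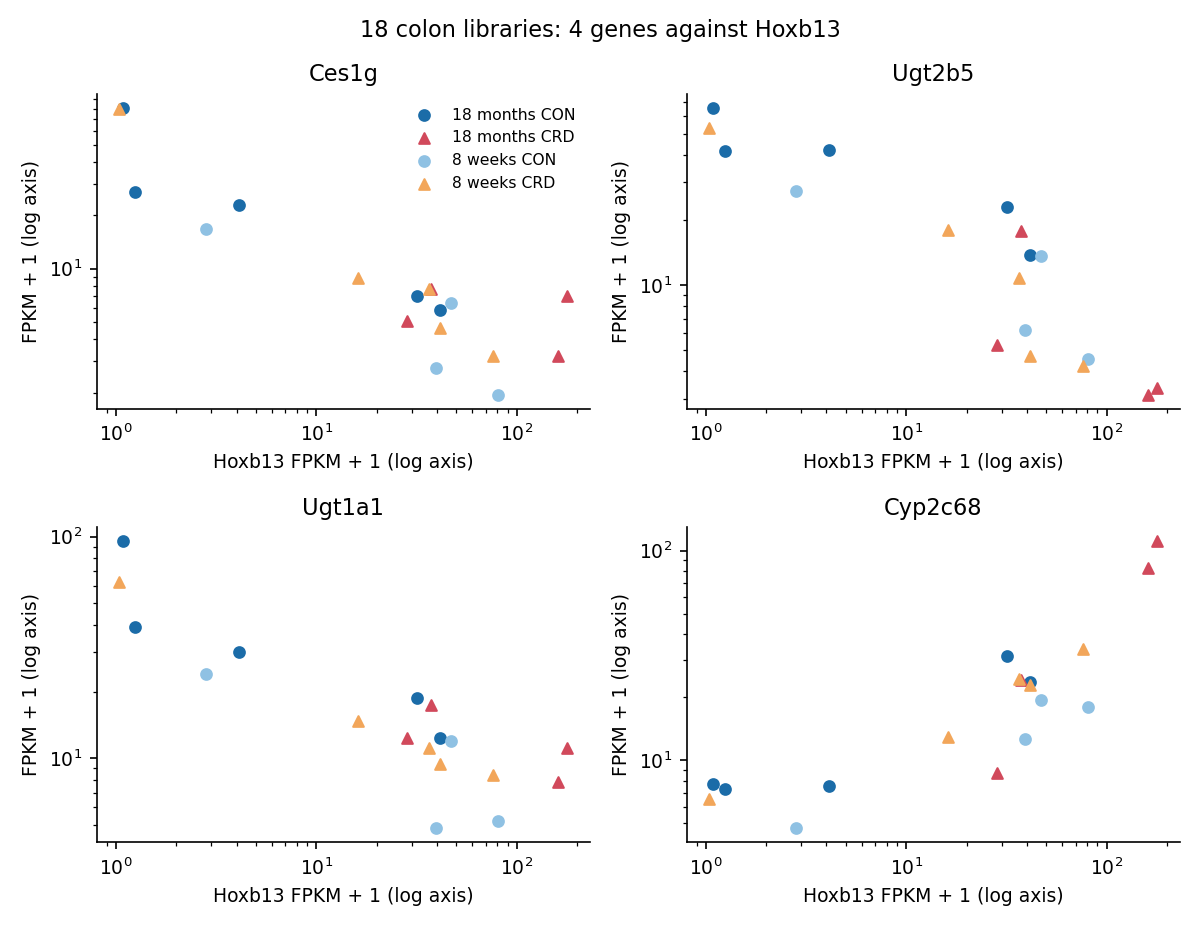
FPKM + 1 of Ces1g, Ugt2b5, Ugt1a1 and Cyp2c68 against Hoxb13 FPKM + 1 in the 18 colon libraries (both axes log), circles CON and triangles CRD, colours by age label and schedule. The libraries with Hoxb13 of 0.04 and 0.09 FPKM are the 2 highest for Ces1g, Ugt2b5 and Ugt1a1, and the libraries with 178 and 159 FPKM are the 2 highest for Cyp2c68.

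Ces1g showed the steepest slope, -0.59 ± 0.07 per unit of log2(Hoxb13 + 1) (limma adjusted p = 5.78e-05). In the 18-month colon CRD libraries it had 6.68, 5.98, 2.22 and 4.07 FPKM, and at 8 weeks 15.7, 0.95, 1.75 and 5.40 in CON and 2.22, 7.85, 3.62, 6.71 and 78.0 in CRD. The 2 values near 80 FPKM, here and in 18-month CON, came from the 2 libraries with the lowest Hoxb13. Ugt2b5, a glucuronosyltransferase, had 21.8, 40.8, 40.5, 64.8 and 12.8 FPKM in 18-month CON and 16.7, 2.37, 2.13 and 4.32 in CRD, and its slope was -0.46 ± 0.07. Ugt1a1 (-0.42 ± 0.05), Gsta4 (-0.27 ± 0.03), Ugt1a6a (-0.34 ± 0.04), Cyp2c66, Cyp2c65 and Cyp4b1 also fell. The 5 that rose were Cyp2c68 (0.45 ± 0.07), Cyp2c69 (0.40 ± 0.05), Cyp2d34, Cyp2d40 and Ces2g. Cyp2c68 had 30.4, 6.51, 6.32, 6.71 and 22.7 FPKM in 18-month CON and 23.2, 110, 81.4 and 7.67 in CRD. The genes that fell included all 4 Ces1 and all 4 Ugt1 genes. Cyp3a44, which also fell, rested on the 2 libraries of lowest Hoxb13, with 23.2 and 20.8 FPKM against at most 2.07 in the other colon libraries. Its cecum mean was 0.02 FPKM, and it reached the level of 0.5 through those 2 libraries. Its slope is therefore not independent of its selection. Cyp3a25, which fell as well, was as uneven, with 1.52 ± 3.37 FPKM in the colon (n = 18) and a mean of 0.39 in the cecum, so the same may hold for it. With Hoxb13 as a covariate, the median CRD change in the 18-month colon was -0.03 in place of -0.29, beside -0.02 in place of -0.04 for all genes. An unadjusted limma p under 0.05 was found for 7 genes in place of 36, against 7.34% of all genes in place of 17.8%, and the value of Ugt2b36 was -0.52 (adjusted p = 0.582). Without the 5 colon libraries below 1 or above 100 FPKM the median was -0.24. Whether Hoxb13 accounts for the values was not tested.

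Single libraries also moved the calls in the 18-month colon. Without replicate 1 of the CRD group 9 of the 81 genes were called, 3 higher, against 0.838% of all genes, and 6 lower, against 2.5%. Without replicate 5 of the 8-week CRD group 4 were called, all lower, against 0.59% of all genes. Replicate 5 of the 18-month CRD group, with the high smooth muscle sum, had the lowest Gstm3 and Sult1d1 of the group; without it no gene was called and the median was -0.25.

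In the 8-week colon the 3 smallest p belonged to carboxylesterases of the Ces2 cluster: Ces2a (1.49 ± 0.48, limma adjusted p = 0.575), Ces2e (0.74 ± 0.26, adjusted p = 0.617) and Ces2c (1.03 ± 0.37, adjusted p = 0.626). All 6 Ces2 genes had positive values, while 35.1% of all genes tested were negative, and the 3 named overlapped between the schedules. Without replicate 5 of the CRD group, the library with the lowest Hoxb13, the median over the 81 genes was 0.08 in place of 0.20.

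Tests of the difference between CRD effects were made across age and across tissue. In the cecum no gene was called for a difference by age, against 0.0364% of all genes, and 10 of 77 had an unadjusted limma p under 0.05, against 15.6%. Ces2b came closest, with a CRD change lower by -0.97 ± 0.20 at 18 months than at 8 weeks (limma adjusted p = 0.0853), then Gsto1 (0.52 ± 0.14, adjusted p = 0.152) and Sult1c2 (-1.15 ± 0.32, adjusted p = 0.156). In the colon none was called, against 0.37% of all genes, and 27 of 81 had an unadjusted limma p under 0.05, against 10.5%. All 27 had the lower value at 18 months, and 67% of all genes tested were negative in this comparison. Sult1a1 (-1.62 ± 0.48, limma adjusted p = 0.251), Nqo1 (-1.16 ± 0.35, adjusted p = 0.268) and Ugt2b36 (-1.35 ± 0.41, adjusted p = 0.281) had the smallest p. With Hoxb13 as a covariate they had -1.26 ± 0.51, -0.65 ± 0.30 and -0.58 ± 0.25, each with a limma adjusted p of 0.9997. Between the tissues at 18 months none was called, against 0.0499%, and 17 of 82 had an unadjusted limma p under 0.05, against 16.2%. Cyp2j6 (-0.61 ± 0.17, limma adjusted p = 0.122), Gsto1 (-0.77 ± 0.22, adjusted p = 0.130) and Cyp2c65 (-2.06 ± 0.70, adjusted p = 0.169) were lowest in p, each lower in the colon's effect. At 8 weeks none was called, with 0% of all genes, and 3 had an unadjusted limma p under 0.05, against 0.698%: Gstt1, Cyp2r1 and Cyp4f15, all with an adjusted p of 1.00.

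Gsto1 can be followed through its values. It had 322, 312, 296 and 349 FPKM in the 18-month cecum CON libraries and 405, 388, 382 and 383 in CRD, without overlap. In the 18-month colon it had 317, 430, 458, 477 and 284 in CON and 323, 262, 289 and 238 in CRD, with overlap. The CRD value was thus the higher in the cecum and the lower in the colon, but neither change nor their difference passed the test.

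Regulators were read beside the enzymes under CRD. Some clock genes were called: in the 18-month cecum Nr1d2, a repressor of the clock, fell by 1.62 ± 0.17 on the log2 scale (limma adjusted p = 0.000353), Ciart fell by 2.16 ± 0.34 (adjusted p = 0.0201) and Cry1 rose by 1.05 ± 0.15 (adjusted p = 0.00983). In the 18-month colon Dbp fell by 2.73 ± 0.49 (limma adjusted p = 0.0163) and Cry1 rose by 1.26 ± 0.22 (adjusted p = 0.0125). In the 18-month cecum Dbp had 43.6, 64.4, 38.0 and 46.2 FPKM in CON and 3.77, 7.19, 4.57 and 7.02 in CRD, without overlap, at an adjusted limma p of 0.0867. Calls over all genes were 0.0291% in the 18-month cecum and 0.54% in the 18-month colon. No clock gene was called at 8 weeks in either tissue, and 6 in the cecum and 2 in the colon had an unadjusted limma p under 0.05. The shares of all genes under 0.05 were 5.16% and 6.92%. As the hour of collection is not stated, a shift of phase and a change of level cannot be told apart for clock genes.

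Receptors and partner genes gave no calls under CRD. Of 14 receptors and partners tested in the cecum and 16 in the colon, 2 and 3 had an unadjusted limma p under 0.05 at 18 months, and 1 and 4 at 8 weeks. The most abundant were Hnf4a (178 FPKM over the gut libraries), Nfe2l2 (97.9), Vdr (88.6) and Pparg (82.6), and PXR (Nr1i2) had 24.9. Electron donors such as Cyb5a (172 FPKM) and Por (57.4) were not called in any of the 4 comparisons, and 3 of 6 in the 18-month colon and 1 in the 8-week colon had an unadjusted limma p under 0.05. NRF2 targets such as Fth1 and Prdx1 were not called either, with 6 of 20 under 0.05 in the 18-month cecum and 9 of 18 in the 18-month colon by limma before adjustment, and 1 and 2 at 8 weeks. Over all genes the share under 0.05 was 16.3% in the 18-month cecum, 17.8% in the 18-month colon, 5.16% in the 8-week cecum and 6.92% in the 8-week colon. In the 18-month colon 16 of the 18 NRF2 targets were negative, as were 58.4% of all genes. The transporters and conjugation partners (32 tested) gave no call, with 8 and 6 such p in the 18-month cecum and colon and 3 and 2 at 8 weeks. Between the tissues at 18 months, the CRD effect on Pgd, an NADPH-producing enzyme, was lower in the colon by -0.80 ± 0.15 (limma adjusted p = 0.0242).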

How the data were processed

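Per the labels' protocols, oligo(dT) beads captured messenger RNA and hexamers primed its copying. The authors deposited 1 table of FPKM values; HISAT2, Bowtie2, RSEM and DESeq2 are named in the submitters' processing notes, beside the build GRCm38, with versions and settings not given in the sources used here. Read counts were not used here, so tests ran on log2(FPKM + 1), which understates changes of weakly expressed genes, with limma 3.58.1 in R 4.3.3 and an intensity trend. One model per tissue (4 groups, 18 libraries) and 1 for both (8 groups, 36 libraries) kept genes whose mean reached 0.5 FPKM, and p-values were adjusted over all genes tested. The fits were tested on simulated data. Adding 1 FPKM and that level were varied, as were scaling, trend and the libraries used. Members and lists were chosen with earlier results of these data known. Named genes were those called (up to 25 a comparison) or else the 3 of smallest p, and the 2 highest in each family. From each list they were the called and up to 4 most abundant genes. The Cyp2d cluster, Cyp2f2, Cyp2r1, Por, Nr1i2 and Gsto1 by library were named after their values were seen. So were the genes against Hoxb13 beyond the first 25. Cecum and colon libraries of the same number deviated together in 17 of 17 pairs (correlations 0.139 to 0.599 over genes), so pairing was used as an alternative. It gave 35 calls (8 higher, 27 lower) at 18 months and 48 (5 higher, 43 lower) at 8 weeks. The share of all genes is not given for that fit, nor for most fits without single libraries. Sequences and coordinates are from RefSeq GRCm38.p6, on which all 82 genes were matched, and were read with Python 3.11.15 and Biopython 1.88.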

Additional observations from a re-analysis of the deposited data

Results flagged for a closer look

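Of 192 groups of 4 or 5 libraries examined (23 genes and the genes' summed share, each by tissue, age and schedule), 23 had a highest or lowest library far from the others. Chance gives about 1 in 20 for a single group. The same libraries recur across genes here, so the groups are not independent and the count is not a test. Replicate 5 of the 8-week colon CRD group, which had the lowest Hoxb13 (0.04 FPKM), stood high in 10: Ces2a (203 FPKM), Ces2b (12.8), Ces2e (193), Cyp2c65 (363), Cyp2c66 (5.53), Cyp4b1 (31.9), Sult1c2 (38.6), Ugt1a1 (61.7), Ugt2b36 (3.49) and the summed share (1.48%). Replicate 4 of the 18-month colon CON group, with Hoxb13 at 0.09 FPKM, stood high for Cyp2c66 (5.54), Cyp4b1 (52.7), Cyp4f15 (0.19) and Gstm3 (62.8). In the remaining colon libraries, 18-month CRD replicate 1 stood low in Gstt1 (38.2) and replicate 5 low in Sult1d1 (70.7).

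In the cecum at 18 months, CON replicate 1 stood high in Ugt2b35 (20.5), replicate 2 high in Cyp2c65 (318) and replicate 3 low in Sult1d1 (338), and CRD replicate 3 stood high in Cyp4b1 (106). At 8 weeks CON replicate 4 stood high in Ces2a (117) and replicate 5 in Sult1c2 (31.2), and CRD replicate 2 in Ugt2b35 (7.21). The causes were not tested.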

How the results depend on the processing

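None of the results compared between settings reversed its direction. Single uncalled CRD values in the 18-month colon did so with Hoxb13 as a covariate. Ces1g went from -1.75 to 0.42, Ugt1a1 from -1.38 to 0.17 and Cyp2c68 from 1.56 to -0.09, while others, such as Ugt2b36 and Ces1f, kept their sign. Cecum genes higher at 18 months in CON numbered 6, and 3 with the replicate number alone as a block, a setting chosen after seeing the data; without single replicates the count ran from 1 to 8. Ugt1a1 lost its limma call with no filter, median-of-ratios scaling, only the groups compared or the number-alone block, and Cyp2c68 in the last 2. In the colon the count of 1 became 2 with a pseudocount of 0.1 and 0 with no filter, median-of-ratios scaling, only the groups compared, the number-alone block, Hoxb13 as a covariate or the 5 libraries left out by Hoxb13, and 0 to 4 without single replicates. The median CRD change in the 18-month colon was -0.033 with the Hoxb13 covariate. Genes called for a slope on Hoxb13 numbered 31, 10 without the 2 farthest libraries, and 15 to 33 without single replicates. CRD calls of 0 became 0 to 1 in the 18-month cecum, 0 to 9 in the 18-month colon, 0 to 1 for the age difference in the cecum and 0 to 2 for the tissue difference at 18 months without single replicates, the 2 without replicate 1 of the 18-month colon CRD group. The cause was not tested.

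CON and CRD libraries of the same number deviated together in 7 of 16 pairs over 0.1 (-0.34 to 0.533). The labels give these pairs only a number in common, and whether they share anything else was not tested. With the replicate block, CRD calls stayed at 0 in every tissue and age. For the age comparisons the planned block could not be estimated, since each block lies within 1 age.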
